A study of Bos taurus with 8 samples.

Results

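A set of 5 microRNAs that are known from lymphocytes was followed in plasma exosomes of cattle: bta-miR-150, bta-miR-155, bta-miR-342, bta-miR-181a and bta-miR-181b. They were chosen by name from the bovine miRNAs of the array, and all 5 were found among its 744. MicroRNAs are short RNAs that pair with messenger RNAs and lower their translation or stability, and some are packed into exosomes, small vesicles that cells release into the blood. Lymphocytes are rich in the miRNAs studied here. miR-150 marks mature B, T and natural killer cells and represses the transcription factor MYB, miR-155 is switched on when lymphocytes and macrophages are activated, miR-342 is made from within the EVL gene in blood-forming cells, and the miR-181 family sets the sensitivity of T-cell receptor signalling and acts in early B cells.

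The blood donors were young adult Japanese Shorthorn steers that had grown up on pasture grass and received no grain. Between 0 and 4 mo the grazing steers lived outdoors and took their own grass, and the housed steers had theirs cut and brought to a free-stall barn. Exosomal RNA of 3 steers was mixed into 1 pool for each feeding group at 0, 1, 2 and 4 mo, and each of the 8 pools was read on 1 array. Animals within a pool could not be compared, so each error given after ± is the scanner software's estimate for the spots of 1 array, or is propagated from it, and does not contain the spread between animals. All 8 arrays lay on 1 slide, with the labels in separate columns and the months in separate rows, so position on the slide cannot be told apart from label and month.

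The deposited sample labels and the column headings of the study's own listing of array values name the feeding groups in opposite ways. Signals of the 5 miRNAs on the arrays labelled housed stand there under headings that begin with G and belong to grazing cattle. Those on the arrays labelled grazing stand under headings that begin with A, and reading these as housed cattle is an inference. This held for 37 of 37 signals compared with a tolerance of 1%. Arrays are called here by their deposited label, none was moved, and each direction between the labels is the opposite if the headings are right.

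Of the 5 miRNAs, 4 were detected on all 8 arrays by the scanner software's flag: miR-150, miR-155, miR-342 and miR-181a. miR-181b was detected on 5 of 8, and its signal reached at most 4.10 times its error estimate. The other 4 had signals between 6.21 times (miR-181a, labelled grazing 4 mo) and 12.6 times (miR-155, labelled housed 0 mo) their error estimates. The added signals of the 5 miRNAs came to between 0.160% and 0.211% of the summed signal of all detected miRNAs on an array. This is a ratio of brightness and not of molecules, and undetected values of miR-181b are in its numerator only. An exosome carries no mark of its cell of origin on these arrays, so whether the signal came from lymphocytes was not measured, and fewer vesicles from a cell type and less miRNA in each vesicle cannot be told apart.

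miR-150, the miRNA of mature lymphocytes, had unscaled signals labelled housed of 105 ± 8.91, 40.6 ± 3.93, 18.4 ± 2.51 and 41.6 ± 3.94 in month order (0, 1, 2 and 4 mo). Labelled grazing, the signals were 33.0 ± 3.35, 25.9 ± 2.89, 40.5 ± 3.97 and 29.0 ± 3.06. The arrays differed in overall brightness, with 90th percentiles of 109, 83.2, 50.7 and 82.5 labelled housed and 40.7, 31.2, 56.1 and 34.2 labelled grazing, so each signal was brought to a common scale with this percentile, taken over all 744 miRNAs. The scaled signals of miR-150 labelled housed were 0.968 ± 0.0818, 0.488 ± 0.0472, 0.363 ± 0.0496 and 0.505 ± 0.0478. Labelled grazing, they were 0.810 ± 0.0823, 0.829 ± 0.0924, 0.721 ± 0.0707 and 0.847 ± 0.0894. The array labelled housed 0 mo thus stood highest, the 4 arrays labelled grazing came next, and the 3 later arrays labelled housed lay below all of them.

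Relative to 0 mo, the log2 changes of miR-150 labelled housed were -0.99 ± 0.19, -1.42 ± 0.23 and -0.94 ± 0.18 at 1, 2 and 4 mo, between 5.13 and 6.11 times their error estimates. Labelled grazing, the changes were 0.03 ± 0.22, -0.17 ± 0.20 and 0.06 ± 0.21, all within their error estimates. The mean over the later months was -1.12 ± 0.15 labelled housed, a level 0.462 times that of 0 mo, and it lay between -1.75 without scaling and -0.54 with normexp. Labelled grazing it was -0.02 ± 0.17, and it lay between -0.12 and 0.19 over the alternatives. The 3 changes of a label share its 0 mo array and are not independent of each other. The difference of change, grazing minus housed by label, was 1.09 with a standard error of 0.39 and an adjusted p of 0.288 in limma, which did not pass. Over the alternatives that adjusted p lay between 0.0247 and 0.999 in limma.

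At the later months alone, without the 0 mo arrays, miR-150 was higher labelled grazing than labelled housed in 3 of 3 months, with log2 differences of 0.77 ± 0.21, 0.99 ± 0.24 and 0.75 ± 0.20 at 1, 2 and 4 mo. At 0 mo the difference had been -0.26 ± 0.19. The mean later difference was 0.83 with a standard error of 0.20, a 1.78-fold higher level, and passed in limma with an adjusted p of 0.0144, although without any scaling of the arrays it was -0.0105. The signs are those of the labels and turn round under the study's headings. Leaving out the arrays of 1 mo gave 0.87 with an adjusted p of 0.211 in limma, leaving out 2 mo gave 0.76 with 0.0734 and leaving out 4 mo gave 0.88 with 0.345, so none of these passed, with fewer arrays in the fit. Over 17 alternatives the adjusted p lay between 0.000867 and 0.984 in limma and was under 0.05 in 8.

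The overall brightness of the arrays bears on this value directly. Without scaling, the median later difference of the 143 miRNAs detected on all 8 arrays was -0.85, and with the 90th percentile it was -0.01. Measured from that median, the later difference of miR-150 was 0.84, a value that no factor per array can move. Other signals, quantile normalization and leaving out a month can move it, and under these it lay between 0.40, with normexp background correction, and 0.98, with the deposited series table. The mean change labelled housed, measured in the same way from the median of the 143 miRNAs, was -1.12, with a range from -1.20 to -0.54 over the alternatives.

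**Figure D1:**
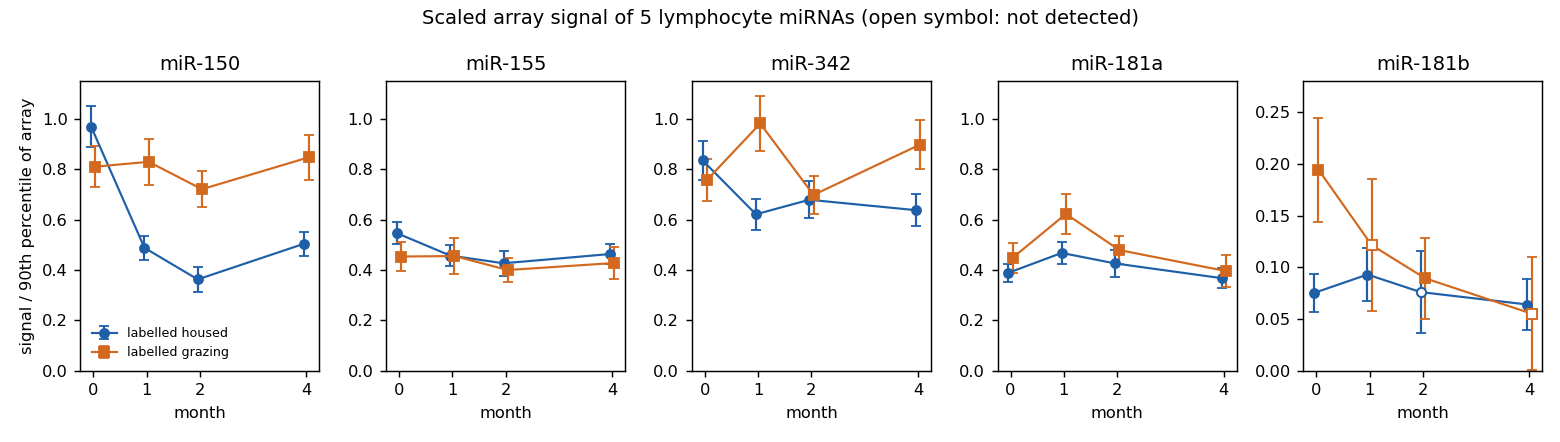
Scaled signal (vertical axis, 90th percentile of the array set to 1, no unit) against month for the 5 miRNAs, with 1 array per point, the scanner software's error estimate as bars, and open symbols where the miRNA was not detected; the scale of miR-181b is expanded. The later arrays labelled housed lie between 0.363 and 0.505 for miR-150 and those labelled grazing between 0.721 and 0.847, a gap that closes to a mean log2 difference of -0.0105 when arrays are not scaled.

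miR-342, which is made from within EVL, had scaled signals of 0.835 ± 0.0776, 0.621 ± 0.0619, 0.679 ± 0.0736 and 0.638 ± 0.0630 at 0, 1, 2 and 4 mo labelled housed. Labelled grazing, they were 0.757 ± 0.0834, 0.981 ± 0.109, 0.698 ± 0.0742 and 0.898 ± 0.0984. The 3 later arrays labelled grazing lay above the 3 labelled housed, but at 2 mo the labels were separated by only 0.04 ± 0.22 on the log2 scale, within the error estimate. The separation was 0.66 ± 0.22 at 1 mo and 0.49 ± 0.21 at 4 mo. Labelled housed, the log2 changes from 0 mo were -0.43 ± 0.20, -0.30 ± 0.21 and -0.39 ± 0.20. Labelled grazing they were 0.37 ± 0.23, -0.12 ± 0.22 and 0.25 ± 0.22, so the sign was not the same in every month. The mean change labelled housed, -0.37 ± 0.16, was 0.00853 with scaling to the summed signal and past 1.5-fold downward without scaling. In limma the mean later difference of 0.40, with a standard error of 0.21, had an adjusted p of 0.184 (0.0362 to 0.763 over the alternatives), and the difference was -0.45 without scaling and 0.72 with let-7g. The difference of change was 0.54 with a standard error of 0.41 and an adjusted p of 0.802 in limma, and neither passed.

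miR-155, the miRNA of lymphocyte activation, had scaled signals of 0.546 ± 0.0432, 0.457 ± 0.0411, 0.427 ± 0.0501 and 0.463 ± 0.0413 at 0, 1, 2 and 4 mo labelled housed. Labelled grazing, they were 0.453 ± 0.0582, 0.455 ± 0.0713, 0.400 ± 0.0482 and 0.428 ± 0.0631. The highest of the 8 values was 1.37 times the lowest, the narrowest range of the 4 miRNAs detected on all arrays, where miR-150 had 2.67 times. The mean change from 0 mo was -0.28 ± 0.14 labelled housed, between -0.91 and 0.0969 over the alternatives. Labelled grazing it was -0.09 ± 0.22, between -0.19 and 0.13. All of these mean changes were thus below 1.5-fold in the scaling used, and their direction depended on it. The later months differed by -0.07, with a standard error of 0.20 and an adjusted p of 0.815 in limma, and this difference was 0.25 with scaling to let-7g and 0.13 with normexp. The difference of change was 0.20 with a standard error of 0.39 and an adjusted p of 0.961 in limma, and it lay between -0.24 and 0.77 over the alternatives.

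miR-181a, known for tuning T-cell receptor signalling, had scaled signals of 0.389 ± 0.0359, 0.468 ± 0.0446, 0.426 ± 0.0520 and 0.368 ± 0.0387 at 0, 1, 2 and 4 mo labelled housed. Labelled grazing, they were 0.449 ± 0.0604, 0.623 ± 0.0806, 0.479 ± 0.0546 and 0.396 ± 0.0637. Under both labels the array of 1 mo was highest and that of 4 mo lowest, and the labels overlapped. Compared within months, miR-181a was higher labelled grazing each time, already at 0 mo. The log2 differences were 0.21 ± 0.24, 0.41 ± 0.23, 0.17 ± 0.24 and 0.11 ± 0.28 at 0, 1, 2 and 4 mo. The log2 changes were 0.27 ± 0.19, 0.13 ± 0.22 and -0.08 ± 0.20 labelled housed and 0.47 ± 0.27, 0.10 ± 0.25 and -0.18 ± 0.30 labelled grazing. The mean changes, 0.11 ± 0.16 labelled housed and 0.13 ± 0.22 labelled grazing, were below 0 in some alternatives, down to -0.53 and -0.04. The difference of change was 0.02 with a standard error of 0.40 and an adjusted p of 0.980 in limma, and it lay between -0.41 and 0.60 over the alternatives. The later months differed by 0.23, with a standard error of 0.20 and an adjusted p of 0.427 in limma, and this difference was -0.62 without scaling, -0.0552 with scaling to the summed signal and 0.56 with let-7g. It passed in limma only with let-7g, with an adjusted p of 0.0363 and a range from 0.0363 to 0.941 over the alternatives.

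miR-181b, a relative of miR-181a that acts in B cells, had unscaled signals of 8.20 ± 2.00, 7.74 ± 2.14, 3.85 ± 2.02 and 5.28 ± 2.06 at 0, 1, 2 and 4 mo labelled housed. Labelled grazing, they were 7.91 ± 2.05, 3.79 ± 1.99, 5.02 ± 2.19 and 1.89 ± 1.88. The values of 2 mo labelled housed and of 1 and 4 mo labelled grazing were not detected. On the scaled signal, 6 of the 8 arrays lay below 0.114, the floor that was set for values near the limit of detection, so no change of miR-181b is given here, and it was not among the 143 miRNAs tested. It was tested only in the alternatives with a wider filter. At 0 mo, where it was detected on both arrays, the scaled signal labelled housed was below the floor, and no fold between the labels is given.

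The counts of the 4 miRNAs that passed the filter were read against the 143 miRNAs detected on all 8 arrays. A mean change of at least 1.5-fold downward labelled housed was seen for 1 of 4, miR-150, and for 17.5% of the 143, and one of at least 1.5-fold upward for 0 of 4 and 2.80%. Labelled grazing, 0 of 4 were at least 1.5-fold down, against 14.7%, and 0 of 4 at least 1.5-fold up, against 4.90%. All 3 later arrays labelled grazing were above all 3 labelled housed for 2 of 4, miR-150 and miR-342, and for 19.6% of the 143, and they were below for 0 of 4 and 23.8%. In limma, 1 of 4 passed in the later difference, against 11.2%, and 0 of 4 in the difference of change, against 1.40%. An unadjusted p under 0.05 was found for 1 of 4 and 52 of 143 in the former fit and for 1 of 4 and 9 of 143 in the latter. The counts describe the 4 miRNAs and were not tested as a list.

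The median later difference was 0.31 over the 4 and -0.01 over the 143, and the median mean change labelled housed was -0.33 over the 4 and 0.00 over the 143. The 4 were spread over the order of the 143 from the highest later difference, with miR-150 at place 5, miR-342 at place 30, miR-181a at place 46 and miR-155 at place 81. These places follow the deposited labels, and under the study's headings the order runs the other way, with miR-150 near its lower end.

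**Figure D2:**
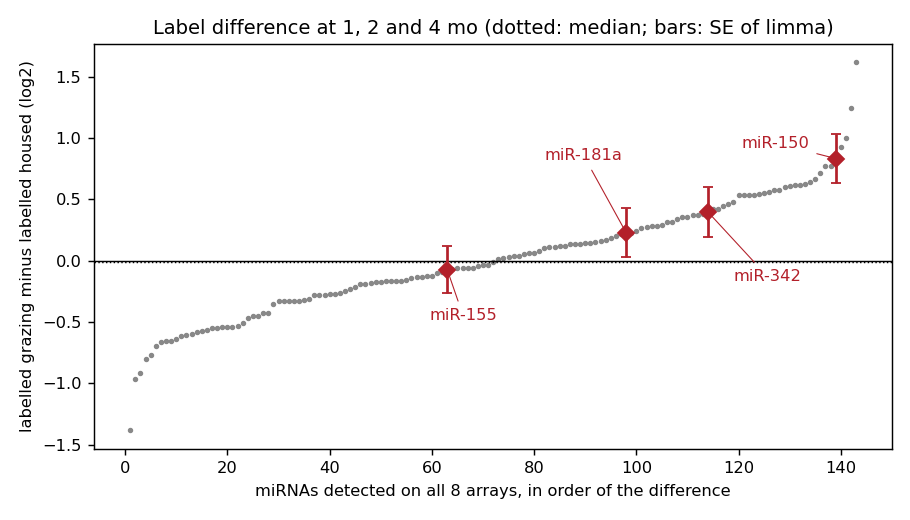
Label difference at 1, 2 and 4 mo (vertical axis, log2 of the scaled signal, labelled grazing minus labelled housed) for the 143 miRNAs detected on all 8 arrays, in order of its size, with the dotted line at their median and bars of 1 standard error from limma for 4 lymphocyte miRNAs. miR-150 lies at 0.83, miR-342 at 0.40, miR-181a at 0.23 and miR-155 at -0.07, and without scaling these become -0.0105, -0.45, -0.62 and -0.92.

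Because every scaling by 1 factor per array acts on all miRNAs of that array alike, the change of 1 miRNA minus that of another on the same arrays is not moved by it. Labelled housed, the change of miR-150 minus that of miR-155 was -0.73, -1.06 and -0.70 over the later months, with a mean of -0.83 ± 0.21. Labelled grazing, the same measure was 0.03, 0.01 and 0.15, with a mean of 0.06 ± 0.28. Against miR-181a the change of miR-150 was -1.22 ± 0.22 as a mean labelled housed and -0.15 ± 0.28 labelled grazing. Against miR-342 it was -0.74 ± 0.22 labelled housed and -0.19 ± 0.25 labelled grazing. Thus the change of miR-150 lay below that of each of the other 3 at all 3 later months labelled housed. Labelled grazing it also lay below that of miR-342 at all 3, with values of -0.34, -0.05 and -0.18. Against miR-181a the values labelled grazing were -0.44, -0.26 and 0.24. The means of miR-150 against the other 3 lay within the error estimates there. The change of miR-155 minus that of miR-342 was 0.09 ± 0.21 labelled housed and -0.25 ± 0.29 labelled grazing. These are descriptions of 8 arrays, and no test was made on them.

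Each miRNA was read by 2 probes with 20 spots each, of which the longer ends in 1 additional base. The probes of miR-150 are shown because its change was read by both, with the capital marking the additional base.
miR-150 longer probe: acactggtacaagggT
miR-150 shorter probe: acactggtacaaggg
The longer probe gave log2 changes of -0.98 ± 0.21, -1.39 ± 0.25 and -0.96 ± 0.21 at 1, 2 and 4 mo labelled housed, and 0.02 ± 0.24, -0.16 ± 0.23 and 0.09 ± 0.23 labelled grazing. The shorter probe gave -1.04 ± 0.34 at 1 mo and -0.87 ± 0.32 at 4 mo labelled housed, and at 2 mo its signal did not exceed 3 times its error estimate. Labelled grazing it gave 0.08 ± 0.51, -0.22 ± 0.45 and -0.06 ± 0.50. Wherever both probes gave a change, they differed by less than their error estimates. They share the array and the RNA and are not replicates. For miR-155 both probes exceeded 3 times their error on 8 of 8 arrays, with mean changes labelled housed of -0.27 for the longer and -0.30 for the shorter. For miR-342 the shorter probe did so on 3 of 8 arrays, so the values of miR-342 rest mainly on the longer probe.

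The miR-181 family has 4 members on the array. Their longer probes are shown because each shares a run of at least 8 bases with that of miR-181a, while their detection differed. Capitals mark the longest run that each shares with the longer probe of miR-181a.
miR-181a: AACTCACCGACAGCG
miR-181b: aaccCACCGACAGC
miR-181c: aAACTCACCGACAGgt
miR-181d: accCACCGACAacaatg
Over the 14 bases compared from the 5′ end, the probes of miR-181a and miR-181b differed by 1 substitution, T4C, with positions counted from the 5′ end of the probe. The longer probe exceeded 3 times its error estimate on 8 of 8 arrays for miR-181a, on 5 for miR-181b and on 0 for miR-181c and miR-181d. The shorter probe did so on 5 of 8 arrays for miR-181a and on 0 for miR-181b, miR-181c and miR-181d. The signal of miR-181b therefore rested on its longer probe, and binding of miR-181a to a probe of miR-181b was not tested.

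**Figure D3:**
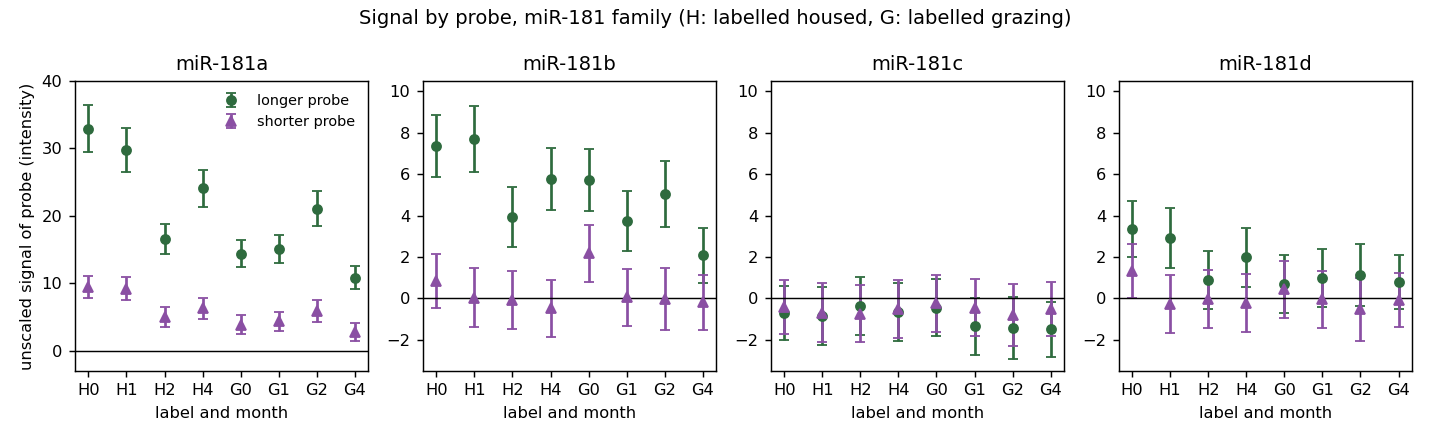
Unscaled signal (vertical axis, intensity) of the longer and shorter probe of miR-181a, miR-181b, miR-181c and miR-181d on each of the 8 arrays (horizontal axis, label and month), with the scanner software's error estimate as bars. The longer probe of miR-181a lies between 10.8 and 33.0 and that of miR-181b between 2.08 and 7.71, while the probes of miR-181c lie below 0 on every array.

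The array design places the longer probes on UMD_3.1 as follows, with the listed positions 1 base shorter than the probe for miR-150, miR-155 and miR-342. The probe of miR-150 lies at chr18:56407871-56407885, that of miR-155 at chr1:10227285-10227301 and that of miR-342 at chr21:66706918-66706932. miR-181a and miR-181b are each placed at 2 loci. miR-181a lies at chr11:95709458-95709472 and chr16:79685964-79685978, and miR-181b at chr11:95710651-95710664 and chr16:79685805-79685818. The probes of the pair are 1178 bases apart on chromosome 11 and 145 bases apart on chromosome 16, and signal from the 2 loci cannot be told apart. In ARS-UCD2.0, used for names and order only, MIR342 is listed within the span of EVL, and MIR181A-2 and MIR181B-2 within that of NR6A1. MIR150 and MIR155 are listed within the span of no other gene. Whether a miRNA lies in an exon or an intron is not analysed here.

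Likeness of patterns was measured as the root mean square difference between log2 profiles over the 8 arrays, each centred on its own mean, and it is a description with no test. The profiles nearest to miR-150 were those of miR-1249 at 0.20, miR-1224 at 0.27 and miR-2391 at 0.28, against a median of 0.58 over the other miRNAs detected on all arrays. Their mean changes were -0.91, -1.04 and -0.59 labelled housed and -0.17, -0.61 and -0.08 labelled grazing. The profiles nearest to miR-342 were those of miR-140 at 0.13, miR-4286 at 0.15 and miR-320a at 0.19, with a median of 0.37. For miR-181a they were miR-30b-5p at 0.17, miR-652 at 0.18 and miR-140 at 0.18, with a median of 0.36. For miR-155 they were miR-186 at 0.12, miR-26a at 0.13 and miR-374a at 0.16, with a median of 0.31, and the profile of miR-155 was itself only 0.12 from a flat line. None of the 4 lymphocyte miRNAs was among the nearest 3 of another.

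Of 15 other miRNAs with known roles in lymphocytes or leukocytes, 10 were detected on all 8 arrays. miR-142-3p, miR-146a, miR-181c and miR-181d were detected on 0 arrays and miR-146b on 1. In limma, 0 of the 10 passed in either comparison, against 2 of 143 in the difference of change and 16 of 143 in the later difference, with an unadjusted p under 0.05 for 1 in the difference of change, against 9 of 143, and for 2 in the later difference, against 52 of 143. Their median mean change was -0.02 labelled housed, against 0.00 over the 143, and 0.43 labelled grazing, against 0.15. miR-142-5p, a miRNA of all blood-cell lineages and the brightest of the list, had a mean change of -0.63 ± 0.12 labelled housed, the only one of the 10 past 1.5-fold downward, against 17.5% of the 143, and 0.49 ± 0.12 labelled grazing. Its difference of change was 1.12, with a standard error of 0.41 and an adjusted p of 0.288 in limma. The summed scaled signal of the list was 61.9, 51.7, 52.5 and 55.6 at 0, 1, 2 and 4 mo labelled housed and 45.7, 60.5, 69.1 and 53.3 labelled grazing.

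miRNAs of other blood and tissue cells were read in the same way. Of the 4 red-cell miRNAs, all detected on every array, 2 were lower labelled grazing at the later months in limma, against 7 of 143 (4.90%). miR-144 differed by -1.38, with a standard error of 0.22 and an adjusted p of 0.00108 in limma, and miR-451, the brightest of them, by -0.92, with 0.22 and an adjusted p of 0.0144 in limma. Over 17 alternatives miR-144 passed in 12 and miR-451 in 10, and neither passed with quantile normalization, with the wider filters or without the 2 or 4 mo arrays. The mean change labelled housed was at least 1.5-fold up for 2 of the 4, against 2.80% of the 143. The summed scaled signal of the 4 was 27.4, 36.2, 41.2 and 49.1 labelled housed and 25.0, 28.3, 16.9 and 24.7 labelled grazing at 0, 1, 2 and 4 mo. It was thus highest on the later arrays labelled housed, those on which miR-150 was lowest, and the part of red-cell RNA in the value of miR-150 was not tested.

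Of 4 miRNAs of endothelium and platelets, 1 was lower labelled grazing at the later months, against the same 7 of 143. This was miR-126-5p by -0.70, with a standard error of 0.20 and an adjusted p of 0.0327 in limma, and it passed in 5 of 17 alternatives. The summed scaled signal of these 4, mostly miR-126-3p, was 59.9, 63.2, 55.6 and 64.9 labelled housed and 37.7, 44.6, 33.8 and 46.0 labelled grazing, already apart at 0 mo. At least 1.5-fold up labelled grazing was 1 of these 4, miR-221 with a mean change of 0.69, against 4.90% of the 143. The myeloid miRNAs miR-223 and miR-21-5p did not pass in limma, with 0 of 2 at an unadjusted p under 0.05 in either fit, against 9 and 52 of 143. The mean change of miR-223 labelled grazing was 0.90 ± 0.13, so that 1 of 2 was at least 1.5-fold up there, against 4.90% of the 143. The summed scaled signal of the 2, mostly miR-223, lay between 17.9 and 24.4 labelled housed. Labelled grazing it was 32.1 at 1 mo and 35.8 at 2 mo, and below 17.9 at 0 and 4 mo. Of the liver miRNAs, miR-192 was detected on all 8 arrays and miR-122 on 5, and their summed scaled signal was at most 0.360. The mean change of miR-192 was 0.81 ± 0.47 labelled grazing, at least 1.5-fold up, against 4.90% of the 143, and 0.53 ± 0.20 labelled housed. Its signal was as low as 4.70, where the lowest detected signal of an array reached 4.10, so it came near the limit of detection. The summed scaled signal of miR-192 and miR-122 leaves out undetected values. Arrays without detected miR-122 thus hold miR-192 alone, and the sums give no direction for either miRNA. Labelled grazing the sum was 0.281, 0.244, 0.147 and 0.234 in month order. Labelled housed it was 0.238, 0.310, 0.360 and 0.274. Of 5 muscle miRNAs, 4 were detected on 0 arrays and miR-133b on 2. The part of these cells in the values of the lymphocyte miRNAs was not tested.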

How the data were processed

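Pooled plasma exosomal RNA was labelled with Cy3 by the authors and read on 8 arrays of an Agilent miRNA design made to order for cattle, 1 per label and month. The deposited scanner output of Feature Extraction 10.7.3.1 holds background-subtracted intensity values, not normalized between arrays. The deposited series table holds a ratio of raw signal to a factor of the array, linear and not centred, and it served as an alternative. Of 1370 detected values, 1006 lay within 1% of the median factor of their array and 302 below it, for a reason that is unknown. Its column medians were 0.000664, 0.000926, 0.00149 and 0.000915 labelled housed and 0.00187, 0.00257, 0.00135 and 0.00241 labelled grazing at 0, 1, 2 and 4 mo, and 730 of its 743 names matched.

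Gene totals were scaled within each array to the 90th percentile of 744 miRNAs. Lower or undetected values were set to 0.114, the largest of the arrays' lowest detected scaled values, before log2. limma 3.58.1 in R 4.3.3 was fitted over the 143 miRNAs detected on all 8 arrays, with Benjamini-Hochberg adjustment at 0.05, for the label difference of the change from 0 mo (month, label, and label in the later months) and for the label difference at 1, 2 and 4 mo (month and label). Residual degrees of freedom were 2 in each fit and come from months alone. limma drew the variance of each miRNA towards a value shared by the miRNAs of the fit. Its standard errors and p-values therefore do not measure the month-to-month spread of 1 miRNA alone. The script was tested on simulated data. The small number of arrays limits the precision. Tables were made with Python 3.11.15, numpy 2.4.6 and pandas 2.3.3.

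The miRNAs and the lists were chosen with earlier results of these data known. Besides the lists, the 3 profiles most like each miRNA were named. Alternatives were other scalings (none, 75th percentile, 90th percentile or median of the miRNAs detected on all arrays, summed signal, let-7g, quantile), mean spot signals, normexp with an offset of 50, a floor of 0.01, the series table, other filters and detection rules, a variance trend, and leaving out each later month.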

Additional observations from a re-analysis of the deposited data

Results flagged for a closer look

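Among the lymphocyte and other leukocyte miRNAs detected on all 8 arrays, 3 had log2 changes from 0 mo below 0 at every later month labelled housed and above 0 at every later month labelled grazing. For miR-142-5p the changes were -0.59, -0.80 and -0.51 labelled housed and 0.46, 0.64 and 0.36 labelled grazing at 1, 2 and 4 mo, and the mean difference was 1.12. For miR-29b they were -0.14, -0.29 and -0.15 labelled housed and 0.60, 0.71 and 0.10 labelled grazing, with a mean difference of 0.66. For miR-19b they were -0.25, -0.21 and -0.14 labelled housed and 0.41, 0.75 and 0.18 labelled grazing, with a mean difference of 0.65. The same pattern was shown by 13 of all 143 miRNAs, or 9.09%. Over 11 alternatives (other scalings, other signals and a floor of 0.01) it held in 11 for miR-142-5p. It held in 7 for miR-29b and in 6 for miR-19b, whose mean changes labelled housed reached 0.18 with scaling to the summed signal. The floor of 0.01, counted among these, left the values of all 3 miRNAs unchanged. The opposite direction in itself was not tested, and the 3 changes of a label share its 0 mo array. The mean differences had adjusted p-values of 0.288, 0.802 and 0.802 in limma and did not pass. None of the 4 lymphocyte miRNAs detected on all arrays had this pattern. The signs are those of the deposited labels.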

How the results depend on the processing

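Of 17 alternatives, all gave miR-150 a mean change below 0 labelled housed, from -1.75 to -0.54, and a difference of change above 0, from 0.53 to 1.67. In the later difference 1 miRNA passed (miR-150), but 0 passed without scaling, with the 75th percentile, the summed signal, quantile normalization, the wider filters (detected on at least 1 array, or none), or without the 1, 2 or 4 mo arrays, and 3 passed with let-7g (miR-150, miR-342 and miR-181a). In the difference of change 0 passed, but 1 did (miR-181b) with detection on at least 1 array and 2 (miR-150 and miR-181b) with no filter. For miR-181b 7 of 8 values were at the floor, so these passes rest on 1 array, labelled grazing 0 mo, and say nothing of its level. Values at the floor were 555 of 1848 in the former fit and 4659 of 5952 in the latter, where 546 of 744 miRNAs had no spread and 567 passed. A mean change past 1.5-fold was seen for 1 miRNA, for 3 without scaling, for 0 with normexp and for 2 with either wider filter. Later arrays did not overlap for 2 miRNAs, for 0 without scaling, for 4 with let-7g, for 3 with normexp or without the 2 or 4 mo arrays, and for 1 with the 75th percentile, the summed signal or the series table. With the 90th percentile of detected miRNAs they were miR-150 and miR-155. Detection on all arrays held for 4 miRNAs, and for 2 (miR-150 and miR-155) when most spots had to be well above background.

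Signs reversed as follows. Without scaling the later difference was -0.0105 for miR-150, -0.45 for miR-342 and -0.62 for miR-181a. That of miR-181a was -0.0552 with the summed signal, and that of miR-155 was 0.25 with let-7g and 0.13 with normexp. The difference of change of miR-155 was -0.24 with the 90th percentile of detected miRNAs, -0.13 with the summed signal and -0.0288 with quantile normalization. That of miR-181a was -0.13 with the 75th percentile, -0.41 with the 90th percentile of detected miRNAs, -0.30 with the summed signal, -0.24 with quantile normalization, -0.0318 with normexp and -0.0678 without the 1 mo arrays. The median later difference of all miRNAs shifted by -0.84 without scaling and by 0.33 with let-7g, and other causes were not tested. Over all miRNAs 16 passed in the later difference, 9 higher and 7 lower labelled grazing, and between 0 and 33 under the alternatives, with 31 higher and 2 lower for let-7g and 7 higher and 22 lower for the 90th percentile of detected miRNAs. In the difference of change 2 passed, and 0 under each other scaling. The fits paired the labels by month, and pairing by animal was not possible because each array read a pool.

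Limits: each array is 1 pool, label and slide column coincide, and every change of a label shares 1 array at 0 mo. The array labelled grazing was the dimmer at 0, 1 and 4 mo, and signal over background limited miR-181b and the shorter probes of miR-342 and miR-181a. Which feeding group a label stands for is in doubt.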
